A study of Mus musculus with 4 samples.

Results

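Tubulins are the subunits of microtubules, and the genes described here encode 6 beta isotypes (Tubb2a, Tubb2b, Tubb3, Tubb4b, Tubb5 and Tubb6) and 4 alpha isotypes (Tuba1a, Tuba1b, Tuba1c and Tuba4a). They were found by gene symbol, and all 10 were among the 17721 genes of the deposited table. They were chosen by their read count and FPKM values in the comparison of LDB2-/- with wild type. The tissue was back skin, taken at postnatal day 63 from the C57BL/6 strain, and the study describes it as epidermal lysate. There were 2 LDB2-/- and 2 wild type libraries. Ldb2 encodes an adaptor that binds LIM domain transcription factors. The labels give neither the LDB2-/- allele, the number of mice behind a library nor any other agent or genotype. Skin was treated with dispase before extraction with Trizol. The libraries held 54095522 and 68436842 counts in LDB2-/- and 67307536 and 57517162 counts in wild type. Ldb2 itself had 0 and 0 counts in LDB2-/- and 0 and 8 in wild type, so it does not check the labels. Keratinocyte markers were present in every library but lower in LDB2-/-. In CPM, counts scaled by the TMM-adjusted library size, 5 basal markers (Krt5, Krt14, Krt15, Col17a1 and Itga6) summed to 10642 and 10839 in LDB2-/-, against 25518 and 22959 in wild type. The 4 suprabasal markers (Krt1, Krt10, Krtdap and Sbsn) summed to 3645 and 3378 CPM in LDB2-/-, against 23368 and 19185 CPM in wild type. Keratin and keratin-associated genes took 12.2% and 13.1% of counts in LDB2-/-, against 5.96% and 5.44% in wild type.

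An alpha and a beta subunit fold with the help of chaperones, pair into a heterodimer and join the growing microtubule. The isotypes are highly alike except in their C-terminal tails, which project from the microtubule surface and carry most of the enzymatic modifications. In epidermis, microtubules radiate from the centrosome in basal keratinocytes and gather at the cell cortex in suprabasal ones. Cells also limit tubulin mRNA by autoregulation, in which the factor TTC5 recognises the first residues of a nascent tubulin chain and the message is degraded.

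The coding starts are shown because they carry that autoregulation signal, in capitals as the first 4 codons. Sequences were read from GENCODE M21 transcripts, 5′ to 3′.
Tuba1a start: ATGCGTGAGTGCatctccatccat
Tuba1b start: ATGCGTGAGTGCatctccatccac
Tuba1c start: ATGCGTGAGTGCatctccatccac
Tuba4a start: ATGCGCGAGTGCatttcagtccat
Tubb2a start: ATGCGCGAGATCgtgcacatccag
Tubb3 start: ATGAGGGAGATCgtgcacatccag
Tubb4b start: ATGAGGGAGATCgtgcacctgcag
Tubb5 start: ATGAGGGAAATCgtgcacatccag
In the isotypes shown, the fourth codon was tgc in every alpha and atc in every beta isotype.

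The coding ends of 5 isotypes are shown because they encode the tails, with the last codon before the stop in capitals. Tubulin tyrosine ligase adds a tyrosine at the end of alpha tubulin, and vasohibins remove it. Tuba8, an alpha isotype outside the 10, is shown beside them.
Tuba1c end: gaaggagacgatgagggtgaggaaTATtaa
Tuba4a end: tatgaggacgaggatgagggagaaGAGtag
Tuba8 end: gaagaagagaatgagggggaggaaTTTtaa
Tubb3 end: gaggaatcggaagcccaggggcccAAGtga
Tubb4b end: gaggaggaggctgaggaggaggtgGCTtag
Of the alpha isotypes shown, Tuba1c ends in a tyrosine codon, and Tuba4a and Tuba8 do not.

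The coding sequences also show where reads can be shared. Tuba1a and Tuba1b were identical at 98.3% of aligned coding bases, Tuba1b and Tuba1c at 97.9%, and Tubb2a and Tubb2b at 96.5%. Of the 50-base words of each transcript, 72.9% for Tuba1a, 73.8% for Tuba1b and 61.0% for Tuba1c also occurred in a transcript of another gene. The share was 49.6% for Tubb2a, 39.3% for Tubb2b and 50.9% for Tubb4b, which shared words with the pseudogene Tubb4b-ps1. Tubb3 and Tubb6 shared none of theirs, Tubb5 shared 0.115% and Tuba4a 1.11%. The division of reads within the Tuba1 trio and the Tubb2 pair is therefore less certain than their sums. The level and share of Tubb4b likewise depend on how reads shared with its pseudogene were counted. Tubb3 and Tubb6 stand apart in sequence. Tuba1a (98949847 to 98953501), Tuba1b (98931429 to 98934390) and Tuba1c (99029891 to 99038105) lie near each other on chromosome 15 (GRCm38.p6). Tubb2a (34074278 to 34078008) and Tubb2b (34127008 to 34130354) are neighbours on chromosome 13. Tubb3 lies on chromosome 8 (123411553 to 123422015), Tubb4b on chromosome 2 (25222158 to 25224702), Tubb5 on chromosome 17 (35833920 to 35838301), Tubb6 on chromosome 18 (67390731 to 67402749) and Tuba4a on chromosome 1 (75214972 to 75221261).

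Of the 10 isotypes, 9 were higher in LDB2-/- than in wild type, and Tubb4b, the isotype with the highest level in wild type, overlapped between genotypes. Tubb3 and Tubb6 together made up 17.1% ± 0.327 of the beta total in LDB2-/- and 0.687% ± 0.0740 in wild type (SD, n = 2 each). Because the isotypes were chosen by this comparison, their differences are a description with no test. Levels are FPKM, read fragments scaled by transcript length and library total, which compare genes per length. Fold changes put LDB2-/- over wild type and come from edgeR on counts scaled by TMM, which evens out differences in library composition. Their SE follows from the edgeR test statistic. All 10 isotypes passed the filter of 1 FPKM in at least 2 libraries, as did 12400 of all genes. With an adjusted p of 0.05 as the threshold, 9 isotypes were called higher and 0 lower, where 28.4% of all tested genes were called higher, 28.8% lower and 57.2% in either direction. Nothing is read from that count, since the contrast chose the members. With the library total alone, 2248 genes were called higher and 5096 lower, against 3521 and 3576 with TMM. Both LDB2-/- libraries exceeded both wild type libraries in FPKM for 9 isotypes, as they did for 27.6% of tested genes, and in TMM-scaled CPM for 9 isotypes and 40.8% of tested genes. Of the isotypes 8 were called with at least a 2-fold difference, as were 13.4% of tested genes in that direction. The median log2 fold change of the 10 isotypes was 1.53, against -0.01 over all tested genes.

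**Figure D1:**
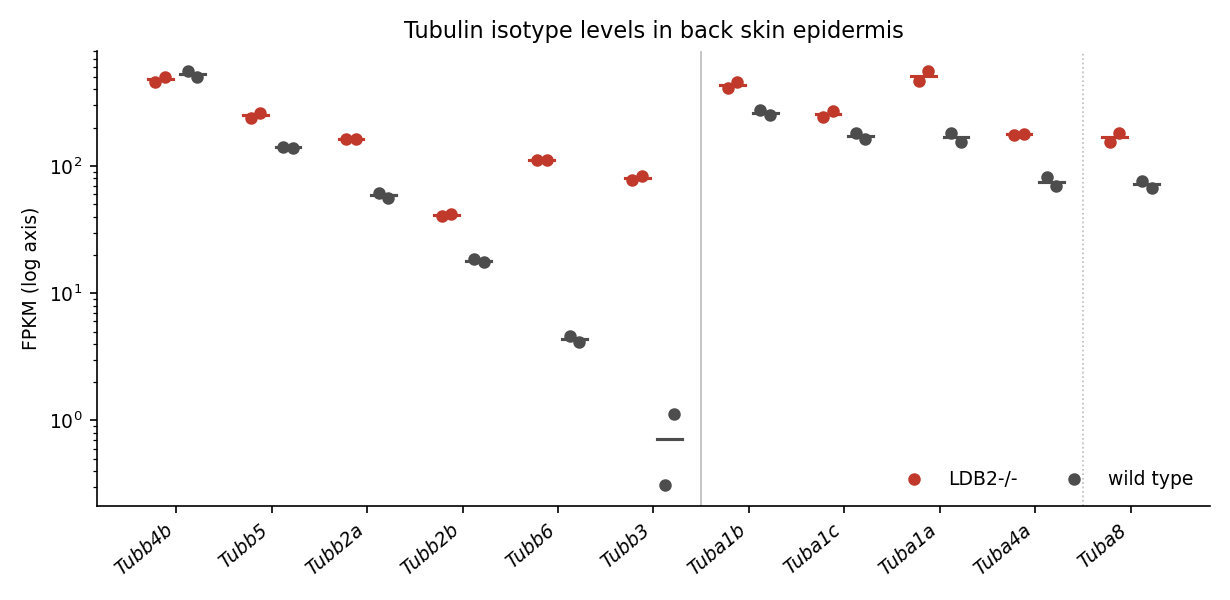
FPKM (log axis) of each isotype in each library, LDB2-/- in red left of wild type in grey, with the mean of 2 libraries as a line; beta isotypes stand left of the solid line, and Tuba8, outside the 10, right of the dotted line. Tubb4b overlaps between genotypes, and Tubb3 and Tubb6 show the widest gaps.

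Tubb3, the class III isotype best known as a marker of neurons, had 77.2 and 83.0 FPKM in LDB2-/-, against 0.309 and 1.13 FPKM in wild type. These rest on 7309 and 9976 counts in LDB2-/-, against 37 and 114 counts in wild type. The genotypes did not overlap, and wild type library 1 held the lower of the 2 trace levels. The log2 fold change was 7.14 (SE 0.57). It was 8.30 without wild type library 2 and 6.48 without wild type library 1. The LDB2-/- libraries alone would carry it past the filter.

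Tubb6, the class V isotype, had 111.9 and 112.2 FPKM in LDB2-/-, against 4.65 and 4.16 FPKM in wild type. The genotypes were far apart, with little spread inside either one. Its log2 fold change was 4.99 (SE 0.14), with 4.89 to 5.08 when 1 library was left out. Among tested genes, 0.742% had a log2 fold change as high as that of Tubb3 and 2.097% as high as that of Tubb6.

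Markers of several cell types also differed between genotypes, where 57.2% of all tested genes were called in either direction. The 5 hair cortex keratins (Krt31, Krt33a, Krt35, Krt85 and Krt86) summed to 9970 and 11337 CPM in LDB2-/-, against 15.02 and 140.5 CPM in wild type. The 5 hair matrix factors (Msx2, Lef1, Hoxc13, Foxn1 and Dlx3) summed to 1885 and 2053 CPM in LDB2-/-, against 61.0 and 73.2 CPM in wild type. The 5 melanocyte genes (Dct, Tyr, Tyrp1, Pmel and Mlana) summed to 1194 and 1362 CPM in LDB2-/-, against 26.3 and 46.6 CPM in wild type. All members of these 3 lists were called higher in LDB2-/-, as were 28.4% of all tested genes. In each list wild type library 1 was the lower of the 2 wild type libraries. This held for Tubb3 but not for Tubb6, at 4.65 and 4.16 FPKM in wild type. Nothing is read from that order, since it rests on 2 libraries. Genes of nerve and myelinating cells did not move one way. Nefm, a neurofilament subunit of neurons, had 6 and 0 counts in LDB2-/-, against 0 and 3 counts in wild type, and was not tested. Mbp, a myelin gene, was at 16.0 and 14.5 CPM in LDB2-/-, against 52.2 and 55.9 CPM in wild type, and fell (log2 fold change -1.83, SE 0.13, adjusted p = 0.000271, edgeR). Sox10, which melanocytes also express, was at 20.7 and 25.5 CPM in LDB2-/-, against 2.43 and 2.03 CPM in wild type, and rose (log2 fold change 3.37, SE 0.23, adjusted p = 0.000241, edgeR). The 6 inner root sheath genes summed to 105940 and 115018 CPM in LDB2-/-, against 159.4 and 601.3 CPM in wild type, and all 6 rose. Skeletal muscle genes summed to 39.5 and 32.3 CPM in LDB2-/-, against 0.850 and 0.603 CPM in wild type. Endothelial genes summed to 21.7 and 25.2 CPM in LDB2-/-, against 2.02 and 4.19 CPM in wild type, with Kdr at 0 in both LDB2-/- libraries. Fibroblast genes summed to 120.4 and 175.8 CPM in LDB2-/-, against 74.1 and 38.9 CPM in wild type, and leukocyte genes to 469.9 and 598.5 CPM in LDB2-/-, against 779.7 and 820.0 CPM in wild type. Called higher were 4 of 4 skeletal muscle genes, and 3 of 3 tested in each of the endothelial and fibroblast lists. Of 4 leukocyte genes 0 were called higher and 3 lower, where 28.8% of all tested genes were called lower. The part of these cell types in the tubulin levels was not tested. In whole tissue, more cells of a type and more RNA per cell cannot be told apart.

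The class II pair, abundant in neurons, moved together. Tubb2a had 164.2 and 162.8 FPKM in LDB2-/-, against 61.8 and 56.4 FPKM in wild type. Tubb2b had 40.7 and 42.1 FPKM in LDB2-/-, against 18.6 and 17.5 FPKM in wild type. Neither gene overlapped between genotypes. Log2 fold changes were 1.79 (SE 0.12) for Tubb2a and 1.52 (SE 0.12) for Tubb2b. Summed over the pair, whose reads can be shared, the level was 204.9 ± 0.0107 FPKM in LDB2-/- and 77.1 ± 4.68 FPKM in wild type (SD, n = 2 each).

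Tubb5, the broadly expressed class I isotype of dividing cells, had 240.7 and 259.5 FPKM in LDB2-/-, against 141.8 and 138.4 FPKM in wild type. Its log2 fold change was 1.16 (SE 0.14), and the genotypes did not overlap. The 6 cell cycle markers were Mki67, Top2a, Ccnb1, Ccna2, Cdk1 and Birc5. They summed to 451.4 and 444.1 CPM in LDB2-/-, against 350.8 and 380.2 CPM in wild type. Of these 6 markers 2 were called higher and 0 lower, where 28.4% and 28.8% of all tested genes were. The CPM rest on TMM factors of 0.920 and 0.872 in LDB2-/- and 1.105 and 1.128 in wild type. Without these factors the sums of the genotypes would overlap.

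Tubb4b, the class IVb isotype found in most cells and in cilia, had 458.7 and 499.8 FPKM in LDB2-/-, against 554.2 and 498.0 FPKM in wild type. LDB2-/- library 2 and wild type library 2 were nearly equal, so the genotypes overlapped. The log2 fold change was 0.19 (SE 0.16) with TMM and -0.13 with the library total alone or on log2(FPKM + 1), so its direction turned with the scaling. Scaling by the library total moved the median of all tested genes to -0.33, against -0.01 with TMM, and lowered every isotype by a like amount. Because the median moved with it, Tubb4b lay slightly above the typical gene under either scaling. With TMM, 40.8% of tested genes had a log2 fold change as high. The other 9 isotypes kept positive fold changes in all 14 alternatives run.

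**Figure D2:**
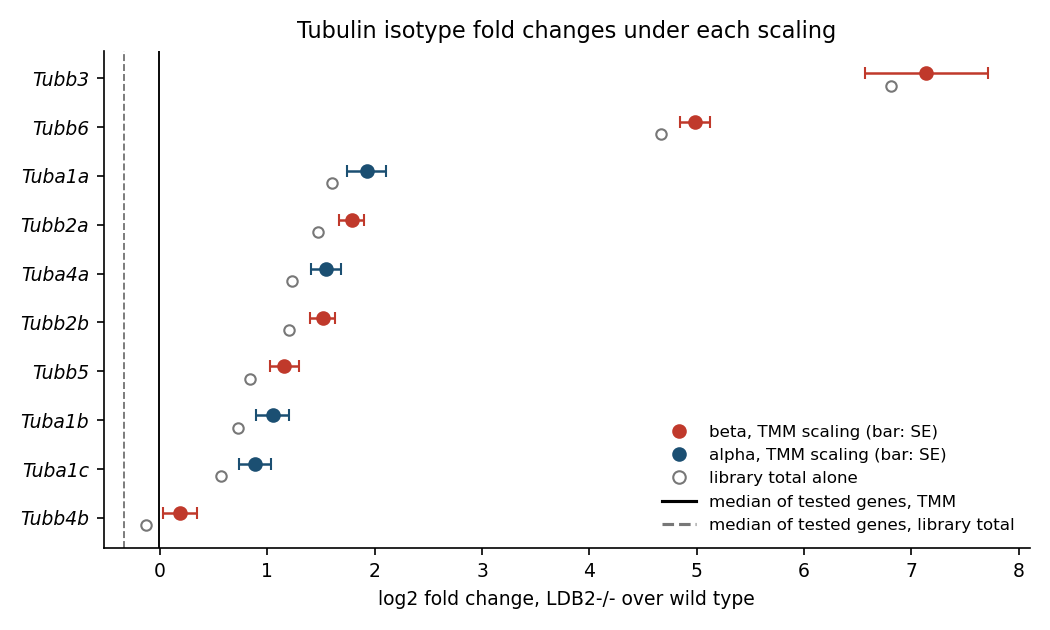
Log2 fold change of each isotype (x axis; LDB2-/- over wild type), with filled points for TMM scaling (bars: SE), open points for scaling by the library total, and vertical lines at the median of all tested genes under each scaling. Tubb4b changes sign between scalings, at 0.19 with TMM and -0.13 with the library total; Tubb3 and Tubb6 lie farthest right.

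Among the alpha isotypes, Tuba1a, known for its role in developing neurons, had the highest fold change. It had 464.2 and 553.9 FPKM in LDB2-/-, against 180.4 and 155.2 FPKM in wild type. Its log2 fold change was 1.92 (SE 0.18). In both LDB2-/- libraries Tuba1a was the isotype with the highest FPKM of the 10, while in both wild type libraries it came after Tubb4b, Tuba1b and Tuba1c. The lead of Tuba1a over Tubb4b in LDB2-/-, 509.1 ± 63.4 against 479.2 ± 29.1 FPKM, lay within the spread of the libraries.

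Tuba1b, a widely expressed alpha isotype, had 410.9 and 457.6 FPKM in LDB2-/-, against 273.5 and 251.4 FPKM in wild type. Tuba1c, its close copy, had 243.5 and 269.3 FPKM in LDB2-/-, against 182.9 and 164.1 FPKM in wild type. These 2 showed the smallest differences after Tubb4b, with log2 fold changes of 1.05 (SE 0.15) and 0.89 (SE 0.15). Over the trio of Tuba1a, Tuba1b and Tuba1c, whose reads can be shared, the sum was 1200 ± 114.7 FPKM in LDB2-/- and 603.8 ± 46.7 FPKM in wild type (SD, n = 2 each).

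Tuba4a, an isotype known from platelets and neurons, had 174.8 and 179.3 FPKM in LDB2-/-, against 81.7 and 69.2 FPKM in wild type. It had a log2 fold change of 1.55 (SE 0.14) and no overlap between genotypes. Tuba8, the divergent alpha isotype, had 153.8 and 183.0 FPKM in LDB2-/-, against 77.0 and 67.1 FPKM in wild type. The log2 fold change of Tuba8 was 1.55 (SE 0.16). It passed with an adjusted p of 0.000796 (edgeR quasi-likelihood test, Benjamini-Hochberg over all tested genes), and passed in all 14 alternatives. The other isotypes with deposited values were near the detection limit and were not tested. Tubb4a had 18 and 31 counts in LDB2-/-, against 38 and 12 in wild type. Tubb1, the isotype of platelets, had 5 and 6 counts in LDB2-/-, against 0 and 0 in wild type. Tubal3 had 0 and 0 counts in LDB2-/-, against 0 and 17 in wild type.

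The beta pool was larger in LDB2-/- and spread over more isotypes. The summed beta level was 1126 ± 46.7 FPKM in LDB2-/- and 748.5 ± 46.6 FPKM in wild type, a ratio of 1.505. In TMM-scaled CPM, which are not scaled by transcript length, the ratio was 1.95. Tubb4b made up 42.0% and 43.1% of the beta total in LDB2-/-, against 70.9% and 69.6% in wild type. Tubb3 and Tubb6 together made up 17.3% and 16.8% in LDB2-/-, against 0.635% and 0.740% in wild type. Tubb2a took 15.02% and 14.0% in LDB2-/-, against 7.91% and 7.88% in wild type, and Tubb5 took 22.01% and 22.4% in LDB2-/-, against 18.1% and 19.3% in wild type. Tubb2b was the smallest of the beta shares in LDB2-/- at 3.67% ± 0.0634, against 2.41% ± 0.0431 in wild type, where Tubb6 and Tubb3 were smaller. For all 6 beta isotypes the shares of the genotypes did not overlap. Nothing is read from that count, since a fall in 1 share raises others and the comparison chose the isotypes. Shares within a library do not depend on how libraries are scaled.

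Tuba1a, Tuba1b, Tuba1c and Tuba4a were each higher in LDB2-/-, with the shares moving toward Tuba1a. The summed alpha level was 1377 ± 117.9 FPKM in LDB2-/- and 679.3 ± 55.5 FPKM in wild type, a ratio of 2.03. In TMM-scaled CPM the ratio was 2.51. Tuba1a made up 35.9% and 37.9% of the alpha total in LDB2-/-, against 25.1% and 24.3% in wild type. Tuba1b made up 31.8% and 31.3% in LDB2-/-, against 38.1% and 39.3% in wild type, and Tuba1c 18.8% and 18.4% in LDB2-/-, against 25.5% and 25.6% in wild type. Tuba4a took 13.5% and 12.3% in LDB2-/-, against 11.4% and 10.8% in wild type. Among Tuba1a, Tuba1b, Tuba1c and Tuba4a, only Tuba1a and Tuba4a thus had larger shares in LDB2-/-. Tuba8, outside this total, also had a larger share when Tuba8 and Tubal3 were added to it. Tuba8 then made up 10.6% and 11.1% in LDB2-/-, against 9.67% and 9.49% in wild type.

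**Figure D3:**
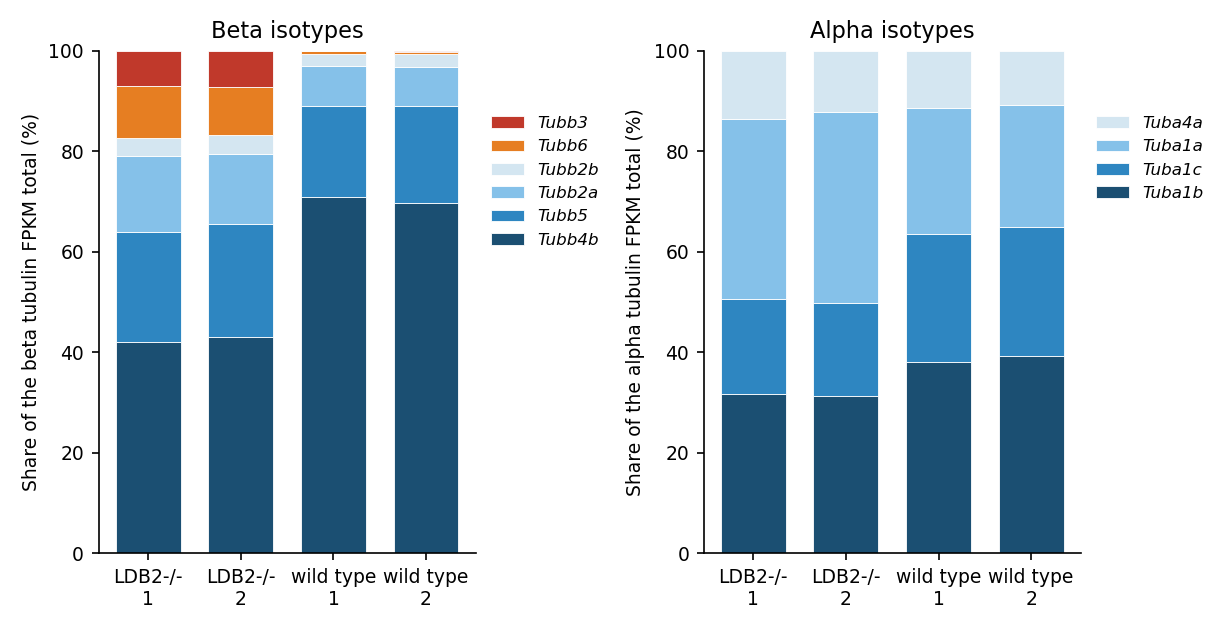
Share (%) of the summed FPKM of the 6 beta isotypes (left) and the 4 alpha isotypes (right) in each library, with the 2 LDB2-/- libraries left of the 2 wild type libraries. Tubb4b fills 42.0% and 43.1% of the beta bars in LDB2-/-, against 70.9% and 69.6% in wild type, and the Tubb3 and Tubb6 blocks are thin only in wild type.

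The ratio of the alpha to the beta total was 1.18 and 1.26 in LDB2-/-, against 0.920 and 0.894 in wild type. With every alpha and beta isotype of the table it was 1.32 and 1.42 in LDB2-/-, against 1.02 and 0.988 in wild type. With 2 libraries per genotype an exact permutation test of a total or a share cannot go below a two-sided p of 0.33, so none was run. The 10 isotypes together took 0.434% and 0.476% of all counts in LDB2-/-, against 0.269% and 0.244% in wild type.

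Of 6 microtubule gene lists, tubulin folding had the highest median fold change and the highest share of genes called higher. Newly made tubulin is folded by prefoldin and the chaperonin TRiC and assembled by the tubulin cofactors. Of 22 folding genes, all tested, 15 rose and 1 fell, or 68.2% and 4.55%, against 28.4% and 28.8% of all tested genes. Their median log2 fold change was 0.70, or 0.38 with the library total alone, against medians of all genes of -0.01 and -0.33. Between 14 and 16 of them were called higher in every alternative. The p-values here measure the spread between these libraries, which the labels do not tie to separate animals.

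Of the 8 chaperonin subunits, 7 rose and 0 fell, where 28.4% and 28.8% of all tested genes did. Cct7 was at 439.6 and 501.6 CPM in LDB2-/-, against 200.5 and 180.9 CPM in wild type, and its log2 fold change was 1.303 (SE 0.13, adjusted p = 0.000781, edgeR). Cct3 was at 344.7 and 374.3 CPM in LDB2-/-, against 177.0 and 165.4 CPM in wild type, and its log2 fold change was 1.07 (SE 0.12, adjusted p = 0.000954, edgeR). Cct5 rose by 0.93, Cct2 by 0.81, Tcp1 by 0.70, Cct6a by 0.67 and Cct8 by 0.67. Cct4 was at 0.24 and did not pass (adjusted p = 0.124, edgeR, with 0.0538 to 0.544 over the alternatives, and below 0 with the library total and in both limma fits).

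Among all tested genes 28.4% rose and 28.8% fell. Of 6 prefoldin subunits 3 rose and only Vbp1, at -0.64 (adjusted p = 0.0271, edgeR), fell. Vbp1 was no longer called without wild type library 1 or without LDB2-/- library 2, where its adjusted p reached 0.151 in edgeR. Pfdn2 was at 46.0 and 53.6 CPM in LDB2-/-, against 27.1 and 24.3 CPM in wild type, and rose by 0.95. Of 7 cofactor genes 5 rose and 0 fell, led by Tbcel, which is related to cofactor E, at 1.05. The autoregulation factor Ttc5 had 50.3 and 43.0 CPM in LDB2-/-, against 36.2 and 36.3 CPM in wild type. Its log2 fold change of 0.37 did not pass (adjusted p = 0.0531, edgeR, with 0.0243 to 0.780 over the alternatives).

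Among enzymes that modify tubulin, 5 of 18 tested genes rose and 1 fell, or 27.8% and 5.56%, against 28.4% and 28.8% of all tested genes, with a median of -0.05. The share called higher was thus near that of all genes. Ttll7, a glutamylase of beta tubulin tails, was at 29.9 and 24.1 CPM in LDB2-/-, against 3.98 and 2.92 CPM in wild type. Its log2 fold change was 2.96 (SE 0.24, adjusted p = 0.000415, edgeR). Ttll1, the catalytic subunit of another glutamylase complex, was at 8.12 and 7.78 CPM in LDB2-/-, against 1.94 and 2.72 CPM in wild type, and it gained 1.77 in log2 terms (SE 0.27, adjusted p = 0.00326, edgeR). Tpgs1 and Tpgs2, further subunits of the TTLL1 complex, rose by 1.10 and 0.77. The call of Tpgs2 was lost in 4 of 14 alternatives, without wild type library 2 among them (adjusted p up to 0.0889). Ttll12, of the same family, rose by 0.40, a call lost in 8 of 14 alternatives (adjusted p up to 0.619). Ttll4 and Ttll5, also glutamylases, had log2 fold changes of -0.12 and -0.02 and did not pass (adjusted p = 0.767 and 0.938, edgeR, with 0.177 to 0.992 and 0.247 to 0.972 over the alternatives). Both turned positive without wild type library 2, and Ttll5 also without LDB2-/- library 1. Atat1, which acetylates alpha tubulin inside the microtubule, had a log2 fold change of -0.88 (adjusted p = 0.0379, edgeR), a call lost in 4 of 14 alternatives, with adjusted p up to 0.112. The tyrosine ligase Ttl was at 20.6 and 21.1 CPM in LDB2-/-, against 18.1 and 21.9 CPM in wild type, and did not pass (log2 fold change 0.06, adjusted p = 0.776, edgeR, with 0.234 to 0.892 over the alternatives, and below 0 with the library total, in both limma fits and without wild type library 1).

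In each remaining list some genes rose and others fell, and the share called higher was below the 28.4% of all tested genes. Of 22 tested nucleation genes 3 rose and 5 fell, or 13.6% and 22.7% against 28.4% and 28.8% of all tested genes, with a median of -0.00. The gamma tubulins, on which new microtubules form, both rose, Tubg1 by 1.34 (SE 0.13, adjusted p = 0.000720, edgeR) and Tubg2 by 1.71. Tubg1 was at 68.2 and 80.8 CPM in LDB2-/-, against 30.5 and 28.3 CPM in wild type. Haus7, of the augmin complex, rose by 1.00. Tubgcp5 and Mzt1, of the gamma tubulin ring complex, fell, with log2 fold changes of -1.09 and -0.95.

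Of 26 tested genes of lattice binding and dynamics 7 rose and 6 fell, with a median of 0.07. That was 26.9% and 23.1%, against 28.4% and 28.8% of all tested genes. Map6, a microtubule stabiliser, rose by 1.64 and Mapre3, an end-binding protein, by 1.53. Clip4 and Mapre2, another end-binding protein, fell, with log2 fold changes of -2.11 and -1.67. Mapre3 was at 103.8 and 109.2 CPM in LDB2-/-, against 38.2 and 35.8 CPM in wild type. Mapre2 was at 10.01 and 10.9 CPM in LDB2-/-, against 31.7 and 35.0 CPM in wild type. Mapre1, the remaining end-binding relative of the list, was at 203.2 and 211.1 CPM in LDB2-/-, against 160.4 and 164.8 CPM in wild type. It rose by 0.35 (adjusted p = 0.0286, edgeR), a call lost in 9 of 14 alternatives, among them each of the 4 that left out 1 library (adjusted p over all 14 alternatives 0.00168 to 0.822).

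Of 24 tested mitotic spindle genes 6 rose and 3 fell, with a median of 0.11. That was 25% and 12.5%, against 28.4% and 28.8% of all tested genes. Kif22 and Aurkb, a spindle kinesin and a mitotic kinase, rose by 0.71 and 0.66, calls lost in 1 and 3 of 14 alternatives. Kif18a, Ckap2l and Prc1 fell, with log2 fold changes of -1.10, -0.50 and -0.45. Their calls were lost in 1, 3 and 4 of 14 alternatives. The counts of spindle genes called depended on the scaling and on single libraries. With the library total alone edgeR called 0 spindle genes higher and 6 lower. Of all 12400 tested genes it then called 2248 higher and 5096 lower. Of 36 tested motor genes 8 rose and 11 fell, with a median of 0.09. That was 22.2% and 30.6%, against 28.4% and 28.8% of all tested genes. Klc2, a kinesin light chain, rose by 1.15 and Actr1b, of dynactin, by 1.12, while the kinesin Kif13b and the dynein light chain Dynlt3 fell, with log2 fold changes of -1.88 and -1.52.

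**Figure D4:**
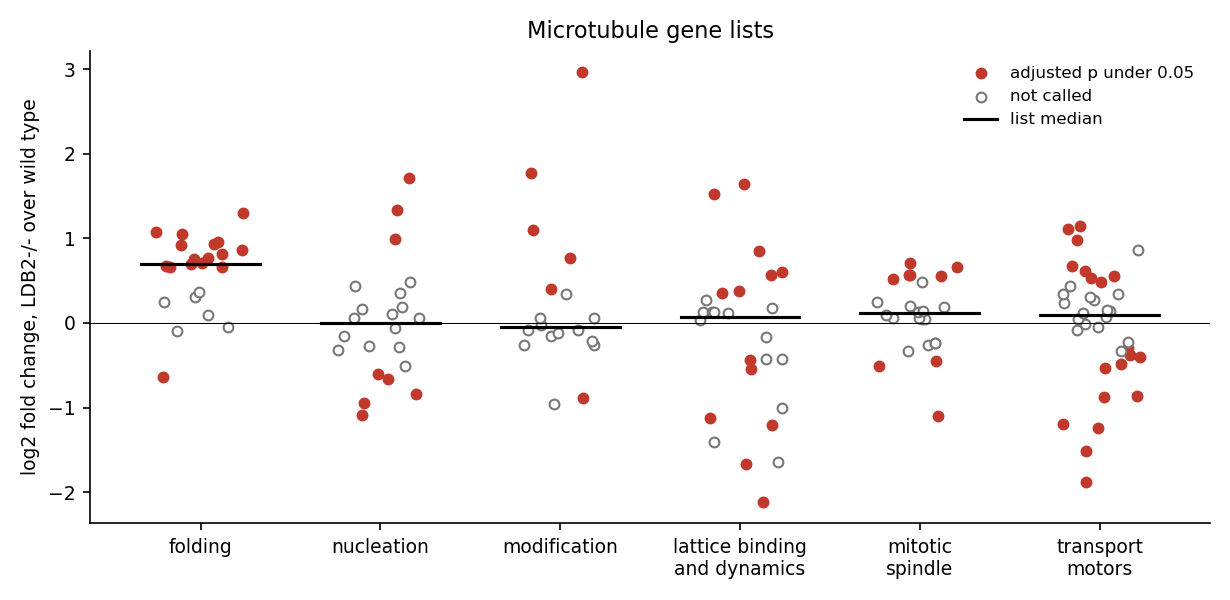
Log2 fold change (y axis; LDB2-/- over wild type) of each tested gene in 6 microtubule gene lists, red where the adjusted p was under 0.05 and open where not, with the list median as a line. The folding list lies mostly above 0 with a median of 0.70, and the other medians lie between -0.05 and 0.11.

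Promoters of 8 isotypes had an entry in the RefSeq table (GRCm38.p6). The 250 bases before the start are printed for Tubb3 and Tuba1a, the beta and alpha isotypes with the highest fold changes, and for Tubb4b, whose levels overlapped. Capitals mark matches, on either strand, to 4 motifs. These were the TATA box core (TATAAA), the CCAAT box (CCAAT), the GC box (GGGCGG) and the core of the LEF and TCF motif (CTTTGA). Each run of capitals is 1 match.
Tubb3, chr8:123411303-123411552, plus strand: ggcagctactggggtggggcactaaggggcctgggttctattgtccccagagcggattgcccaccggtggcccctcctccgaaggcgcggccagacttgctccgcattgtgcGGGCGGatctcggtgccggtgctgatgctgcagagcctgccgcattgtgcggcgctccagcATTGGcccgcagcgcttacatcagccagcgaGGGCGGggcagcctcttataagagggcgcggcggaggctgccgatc
Tuba1a, chr15:98953502-98953751, minus strand: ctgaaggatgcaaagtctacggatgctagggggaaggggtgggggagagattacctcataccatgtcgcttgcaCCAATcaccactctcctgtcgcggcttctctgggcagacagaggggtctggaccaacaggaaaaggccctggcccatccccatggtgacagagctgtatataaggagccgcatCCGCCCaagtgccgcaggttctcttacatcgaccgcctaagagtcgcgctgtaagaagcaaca
Tubb4b, chr2:25224703-25224952, minus strand: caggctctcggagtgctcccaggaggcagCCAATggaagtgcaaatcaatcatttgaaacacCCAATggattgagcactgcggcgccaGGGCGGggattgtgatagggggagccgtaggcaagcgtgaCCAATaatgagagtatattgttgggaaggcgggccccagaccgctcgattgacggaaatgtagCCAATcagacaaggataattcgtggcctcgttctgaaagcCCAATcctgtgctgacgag
Tubb4b held 5 matches to CCAAT, Tubb5 held 2, and Tubb3, Tuba1a and Tuba1c held 1 each. CCAAT was found in 5 of the 8 isotype promoters and in 33.85% of 32851 promoters of the same length. GGGCGG was found in 6 of 8 and in 32.7% of all, TATAAA in 1 of 8 and in 12.4% of all, and CTTTGA in 0 of 8 and in 13.8% of all. A match describes the letters of this window and is not evidence of binding.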

How the data were processed

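Per the labels' protocols, sequencing libraries came from a TruSeq RNA kit, and no strandedness is stated. Per the submitters' processing notes, the tools were bcl2fastq 1.8.4, HISAT2 2.1.0 and StringTie 1.3.4d, with build mm10. The authors deposited whole-number read counts per gene, not normalized, and FPKM values per gene, per the file headers. How reads shared by near-identical genes were counted is not given in the sources used here. A further 4 columns of values per library were not used.

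Counts were tested with edgeR 4.0.16 (R 4.3.3) by the two-sided quasi-likelihood test with TMM scaling, in the 12400 genes that reached 1 FPKM in 2 or more of the libraries, Benjamini-Hochberg adjusted over all of them. The biological coefficient of variation was 0.194. The TMM factors were 0.920 and 0.872 in LDB2-/- and 1.105 and 1.128 in wild type. Depth was 54095522 to 68436842 counts per library. The test was checked on simulated data in which far fewer genes differed than were called here. That check does not cover the choice of scaling. Totals and shares are sums of FPKM. Replicates of a genotype differed beyond sampling noise (chi-square per degree of freedom 53.8 in LDB2-/- and 64.9 in wild type). Coding sequences were aligned globally with Biopython 1.88. Tables and figures used Python 3.11.15, pandas 2.3.3 and matplotlib 3.10.9.

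The isotypes and lists were chosen with earlier results of these data known. Named from each list were up to 2 genes per direction with the largest fold changes among those called, and the minority where it held 5 or fewer. The chaperonin subunits, Pfdn2, Tbcel, Ttc5, Ttl, Tpgs1, Tpgs2, Ttll12, Ttll4, Ttll5 and Mapre1, and the marker genes given singly, were added after their values were seen. Gene lists held 23 nucleation, 22 folding, 28 modification, 39 lattice, 25 spindle and 42 motor genes, of which 4 modification and 2 lattice genes were not analysed here. Some marker genes and sequences are not reported here. Alternatives were other scalings, filters and tests (DESeq2 1.42.0, and limma 3.58.1 on log2(FPKM + 1) or log2(FPKM + 0.1)), a replicate block, and each library left out.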

Additional observations from a re-analysis of the deposited data

How the results depend on the processing

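The counts below moved by over 1.5 times under the settings named. With the library total alone, 2248 genes were called higher in LDB2-/-, and the counts became 2 folding genes lower, 3 modification genes higher and 2 lower, 3 lattice genes higher, 0 spindle genes higher and 6 lower, and 4 motor genes higher. With limma on log2(FPKM + 1) they were 8 nucleation genes lower, 3 folding genes lower, 3 modification genes higher and 3 lower, 4 lattice genes higher, 1 spindle gene higher and 5 lower, and 5 motor genes higher. With log2(FPKM + 0.1) they were 3 folding genes lower, 3 modification genes higher and 3 lower, 3 lattice genes higher, 1 spindle gene higher and 5 lower, and 5 motor genes higher. With edgeR's filterByExpr, 2 modification genes were lower. For comparison, these counts over all tested genes moved less. The library total called 5096 genes lower. Limma called 2393 higher and 5350 lower on log2(FPKM + 1), and 2354 and 5214 on log2(FPKM + 0.1). The log2 fold changes of Cct4 and Ttl, not called in edgeR, turned to -0.077 and -0.260 with the library total, -0.079 and -0.208 with limma on log2(FPKM + 1), and -0.080 and -0.249 on log2(FPKM + 0.1). On TMM-scaled read counts, the log2 ratio of the totals was 0.96 for beta and 1.33 for alpha isotypes, against 0.59 and 1.02 in FPKM. The causes were not tested.

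With a replicate block, 2916 genes were called higher, 3176 lower and 3 spindle genes higher. The deviations of LDB2-/- library 1 and wild type library 1 correlated at -0.164 over 12400 genes. With 2 libraries per genotype this single correlation cannot exclude a shared litter or day, so any pairing stays unknown. With crossed pairs, chosen after seeing the data, 3678 genes were called higher and 0 modification genes lower.

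With 1 library left out, a lone sample is assumed to vary like the other genotype. The counts then ran over 2 to 6 nucleation genes lower, 0 to 1 folding genes lower, 3 to 5 modification genes higher and 0 to 2 lower, 2 to 3 spindle genes higher and 0 to 3 lower, and 6 to 9 motor genes lower. The log2 fold change of Ttl ran between -0.072 and 0.203, that of Ttll4 between -0.486 and 0.370 and that of Ttll5 between -0.225 and 0.209, none of them called. Counts of folding genes called higher stayed between 14 and 16 in all 14 alternatives.

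With 2 libraries per genotype, the precision rests on the spread between libraries rather than on depth. Tubb3 in wild type, at 37 and 114 counts, is the least precise isotype value. The division of reads between near-identical isotypes, and the level of Tubb4b, depend on how the authors counted shared reads.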
